A study of Homo sapiens with 8 samples.

Results

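The comparison described here is that of HT cells given the PRC2 inhibitor iEZH with HT cells given its solvent DMSO, across 13333 genes whose row in the HT expression table spans 300 bp or more. The rows were chosen by length alone, as the end minus the start of each row, from the 13700 rows of that table with a number in every library. HT is an established human cell line of diffuse large B cell lymphoma. Cells of the line were sampled at day 4, after 96 hours, as 2 iEZH libraries and 2 DMSO libraries of total RNA. The whole series holds 8 libraries, the other 4 from SUDHL6, a further lymphoma line of the same kind with the same treatments. The labels used here name no dose, and nothing says that the libraries of a group came from separate cultures, so p-values measure only the spread between these libraries.

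PRC2 is the complex that methylates lysine 27 of histone H3, with EZH2 or EZH1 as the enzyme and EED and SUZ12 as the other core subunits. The mark is laid over promoters of silent genes, many of them developmental regulators, and PRC1 complexes bind it. In germinal centre B cells, from which this lymphoma arises, EZH2 is abundant and is known for holding differentiation and cell cycle brake genes low.

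Sequencing depth was 79309616 and 72385330 reads with iEZH, against 77232993 and 81858662 reads with DMSO. Expression is in FPKM, fragments per kilobase of transcript scaled to the mapped reads of the library, as the authors deposited it, and values that fell below detection sit at 1 shared floor of 0.0613 FPKM. Log2(FPKM + 1) values correlated across the longer rows at 0.991 between the iEZH libraries and 0.992 between the DMSO libraries. Between groups, libraries of the same replicate number correlated at 0.985 and 0.987, and those of unlike number at 0.981 and 0.982. Genes are not independent replicates. The labels give the replicate number no meaning, and it enters no test below unless a replicate block is named. Rows under 300 bp, mostly small RNAs, held 33.9% and 21% of the summed FPKM with iEZH and 41.4% and 36.7% with DMSO. All 6 B cell markers were well expressed, from 866 FPKM for CD79A in an iEZH library down to 35.2 FPKM for MS4A1 in a DMSO library, with summed levels of 1918 and 1705 FPKM in the iEZH libraries and 1566 and 1571 FPKM in the DMSO libraries. Of 14 markers of T and NK cells, 8 were analysed here: CD3D had 0.23 and 0.24 FPKM with iEZH, and both of its DMSO libraries were at the floor, whereas LCK, a kinase of lymphocyte receptors, stood at 84.1 and 71.5 FPKM with iEZH, against 136 and 128 FPKM with DMSO. The 5 myeloid, 2 stromal and 2 erythroid markers analysed were all under 7 FPKM in every library except CD33, a myeloid surface receptor, at 67.7 and 70.1 FPKM with iEZH and 55.9 and 60.7 FPKM with DMSO.

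At 96 hours, a set of genes was higher with iEZH than with DMSO, among them the secreted proteoglycan SPOCK2. A set of well expressed genes of amino acid supply was lower, led by the glutathione-degrading enzyme CHAC1. Genes were tested with limma on log2(FPKM + 1) where at least 2 of the 4 libraries reached 1 FPKM, and called at an adjusted p (Benjamini-Hochberg) of 0.05 or less. Over the whole HT table, short rows included, 69 of 11321 rows tested were called, or 0.609%; 52 were higher (0.459%) and 17 lower (0.15%). Of the 11164 longer rows among them, 51 were called, 45 higher with iEZH and 6 lower. Leaving out a single library moved that count to 12 without iEZH library 1, 11 without iEZH library 2, 17 without DMSO library 1 and 70 without DMSO library 2, and 3 of the 51 genes, SPOCK2, CHAC1 and PPAN-P2RY11, were called in each of those 4 fits.

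When the 11164 longer rows were fitted on their own, 615 were called, or 5.51%: 454 higher with iEZH (4.07%) and 161 lower (1.44%). The 51 genes above were all among the 615, and the remaining 564 had an adjusted p between 0.0503 and 0.0978 in the whole-table fit. Both counts are given below, since the larger one rests on leaving the short rows out. The shares of 4.07% higher and 1.44% lower are the background for each list count of the longer-row fit below. For counts of signs the background is 5872 of 11164 longer rows tested with a positive log2 change and 5292 with a negative one. In all 615 the iEZH libraries did not overlap the DMSO libraries, which was also so for 28.8% of all longer rows tested in the higher direction and 23.5% in the lower. Of the 615, 589 were also called without iEZH library 1, 587 without iEZH library 2, 354 without DMSO library 1 and 340 without DMSO library 2; 208 of the higher and 59 of the lower genes were called in every one of these 4 fits.

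Rises and falls differed in level. Genes called higher in the longer-row fit had a median of 6.80 FPKM with iEZH and 3.10 FPKM with DMSO, while genes called lower had a median of 22.5 FPKM with iEZH and 43.8 FPKM with DMSO; over all longer rows tested the medians were 16 and 15.8 FPKM. The median log2 change was 0.84 among the genes called higher and -0.80 among those called lower, against 0.02 over all longer rows tested. Among the 1286 genes with a mean of 1 to 3 FPKM, 118 were called higher and 6 lower, and among the 859 genes at 100 FPKM or more, 9 were called higher and 29 lower. Of the 454 genes called higher, 89 stayed below 1 FPKM in each DMSO library. Their iEZH values alone let them into the test, which also holds for their p-values. PPAN-P2RY11 was among these 89. Its calls without single libraries, given above, have the same limit, since the filter always read all 4 libraries. FILIP1L, FABP6, S100A6, OASL, SESN1, DLX1, DLX2, CAMKV and NLGN2, named below, were also among these 89. The reverse held for 2 of the 161 genes called lower. The medians and low-level counts are therefore no measure of low genes as a whole. Changes were moderate: 117 genes called higher had a log2 change over 1 and 37 called lower had one under -1, but only 2 in each direction went past 2. The log2 scale with its added 1 understates the change of low genes. In a bulk culture, a change in the number of cells that express a gene and a change of RNA per cell cannot be told apart.

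**Figure D1:**
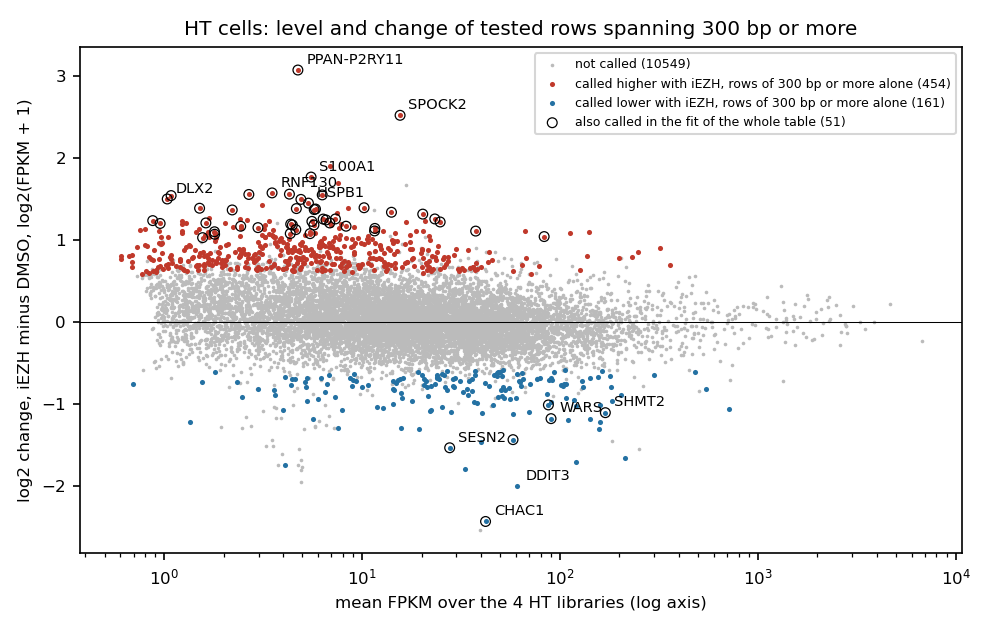
Log2 change, iEZH minus DMSO (vertical axis), against the mean FPKM over the 4 HT libraries (horizontal log axis) for 11164 tested rows spanning 300 bp or more. Red points (454) were called higher and blue points (161) lower in the fit of these rows alone, black rings (51) mark those also called in the whole-table fit, and red points gather at low levels while blue points lie mostly above 10 FPKM.

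**Figure D2:**
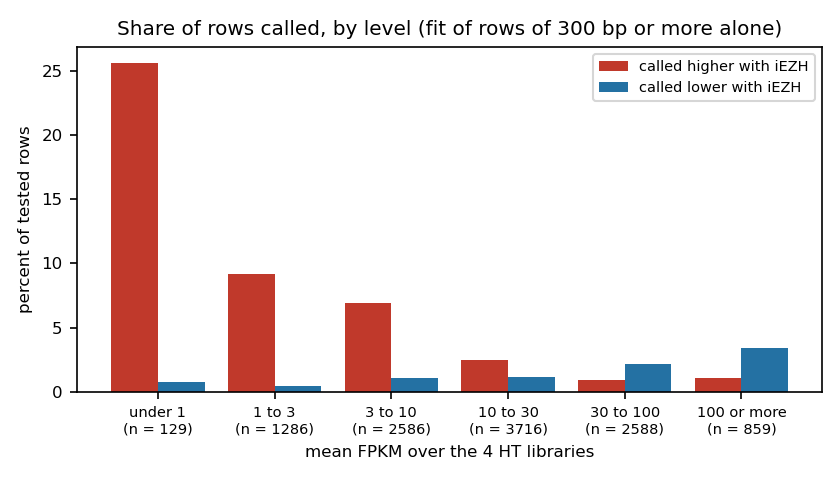
Percent of tested rows spanning 300 bp or more that were called higher (red bars) or lower (blue bars) with iEZH in the fit of these rows alone, by mean FPKM over the 4 libraries, with the number tested under each bar pair. The higher share is 25.6% under 1 FPKM, where a gene passes the filter only if 2 libraries reach 1 FPKM, and the lower share is the larger one from 30 FPKM up.

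Genes at the detection floor moved almost only upward. Of the longer rows, 97 and 105 sat at the floor in the iEZH libraries, against 313 and 282 in the DMSO libraries. There were 123 genes that stood above the floor in both iEZH libraries while both DMSO libraries lay on it, and 1, the histone gene HIST1H2BB, with the reverse pattern. Most of these signals stayed very low: only DLX2 reached 1 FPKM in both iEZH libraries, and GPR161, an orphan receptor of the primary cilium, followed at 0.778 and 0.869 FPKM with iEZH. A wider band, under 1 FPKM in both DMSO libraries and at least 1 FPKM in both iEZH libraries, held 229 genes, and its reverse held 27. No test was made of these counts, which describe 2 libraries a group.

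The transcripts of PRC2 itself did not pass the test. EZH2 had 56.2 and 49.4 FPKM with iEZH, against 63.6 and 55.9 FPKM with DMSO, so the groups overlapped (log2 change -0.18, SE 0.14, adjusted p = 0.519). EZH1 had 15.2 and 17.7 FPKM with iEZH and 15.6 and 17.4 FPKM with DMSO. EED and SUZ12 were lower in both iEZH libraries, EED at 38.2 and 37.7 FPKM against 51.4 and 52.2 FPKM with DMSO (adjusted p = 0.11), and SUZ12 at 55.9 and 68 FPKM against 74.3 and 74.4 FPKM (adjusted p = 0.353). All 6 core subunits had a negative log2 change, with a median of -0.22, and 0 were called in either fit. EED and RBBP7 had the 2 smallest p-values of the 6. With the replicate number as a block, their limma adjusted p was 0.0215 and 0.0275, in a fit that called 2440 of the longer rows. Since iEZH acts on the enzyme, these levels do not check the labels.

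Among accessory subunits, JARID2, which guides PRC2 to chromatin, had 8.74 and 9.28 FPKM with iEZH, against 4.93 and 5.36 FPKM with DMSO (log2 change 0.70; adjusted p = 0.0649 in the whole table and 0.0378 in the longer rows). C17orf96, a further PRC2-associated protein, had 17.8 and 13.1 FPKM with iEZH, against 7.64 and 6.56 FPKM with DMSO (1.01; adjusted p = 0.0686 and 0.0319). Of 19 PRC1 genes tested, 14 were higher with iEZH and 1, the polyhomeotic protein PHC2, was called in the longer-row fit, at 40.4 and 38.3 FPKM with iEZH and 24.6 FPKM in each DMSO library (adjusted p = 0.0623 and 0.0379). None of 40 other histone lysine methyltransferases and demethylases and none of 9 DNA methylation enzymes was called in either fit, with medians of -0.02 and -0.07 against 0.02 over all longer rows. Quantile normalization turned the sign of the DNA methylation median (0.01). DNMT1, the maintenance DNA methyltransferase, had the lowest p of those 9, at 125 and 119 FPKM with iEZH and 177 and 169 FPKM with DMSO (adjusted p = 0.0995 and 0.0685). With the replicate block its adjusted p was 0.0166. Of 23 subunits of the SWI/SNF remodelling complexes, SMARCD3, a subunit of muscle and heart, was called in both fits, at 6.01 and 7.82 FPKM with iEZH, against 1.48 and 1.87 FPKM with DMSO (1.56, adjusted p = 0.0444).

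SPOCK2 had the largest called rise after that of the readthrough row PPAN-P2RY11. SPOCK2 (hg19 chromosome 10, 73818792 to 73848790) had 25.7 and 28.7 FPKM with iEZH, against 3.83 and 4.01 FPKM with DMSO, a 6.95-fold ratio of means (27.2 ± 2.11 against 3.92 ± 0.13 FPKM, SD, n = 2 each; log2 change 2.52, SE 0.13, adjusted p = 0.00321). Both iEZH libraries lay far above both DMSO libraries. S100A1, a calcium-binding protein of muscle (chromosome 1, 153600873 to 153604513), had 9.12 and 9.05 FPKM with iEZH, against 2.17 and 1.77 FPKM with DMSO (1.77, SE 0.13, adjusted p = 0.0194). Its row overlaps that of S100A13, which had 22 and 18.7 FPKM with iEZH, against 9.90 and 8.26 FPKM with DMSO (1.09; adjusted p = 0.0547, and 0.0242 in the longer rows), so reads of the shared stretch cannot be assigned here. The readthrough gene PPAN-P2RY11 had 7.80 and 10.7 FPKM with iEZH and 0.375 and 0.0613 FPKM with DMSO (3.07, adjusted p = 0.0126), but it shares its whole extent with PPAN and P2RY11, whose values varied within groups: P2RY11 had 11.9 and 0.865 FPKM with iEZH and 6.91 and 5.73 FPKM with DMSO. The split of reads among the 3 rows makes this rise uncertain.

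Further rises came from genes of many roles. RNF130, a membrane ubiquitin ligase, had 5.53 and 5.97 FPKM with iEZH, against 1.2 and 1.34 FPKM with DMSO (log2 change 1.57, adjusted p = 0.0235). NPL, the lyase that breaks down sialic acid, had 9.50 and 10.2 FPKM with iEZH, against 2.95 and 2.49 FPKM with DMSO (1.55, adjusted p = 0.0325). FILIP1L, an inhibitor of cell migration, had 1.91 and 2.29 FPKM with iEZH and was close to the floor with DMSO, at 0.069 and 0.0616 FPKM (1.54, adjusted p = 0.0261). These 3 genes and SPOCK2 were at least 3-fold apart between groups in ratio of means. In each the lowest iEZH library was above the highest DMSO library, a lack of overlap shared by all 615 calls of the longer-row fit.

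Of the other leading rises, CAMKV, a kinase-like protein of synaptic vesicles, had 5.19 and 3.8 FPKM with iEZH, against 0.996 and 0.729 FPKM with DMSO (adjusted p = 0.0482). MPZL2, a cell adhesion molecule, had 7.44 and 8 FPKM with iEZH, against 2 and 2.19 FPKM with DMSO (adjusted p = 0.0281). SCARB1, the receptor for high-density lipoprotein, had 14.3 and 16.3 FPKM with iEZH, against 4.77 and 5.64 FPKM with DMSO (adjusted p = 0.0443). The small heat shock protein HSPB1, the bile acid carrier FABP6 and the adhesion receptor LPHN1 had log2 changes of 1.38 to 1.45, and their groups did not overlap. Every one of the 14 largest rises stood under 6 FPKM in both DMSO libraries.

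**Figure D3:**
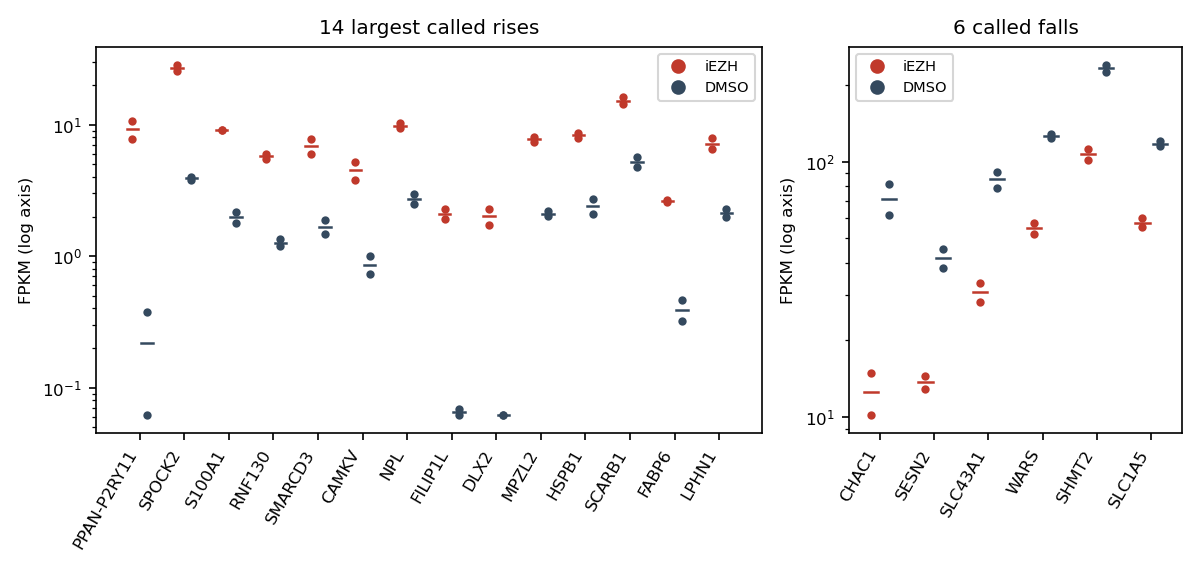
FPKM (log axis) in each HT library for the 14 largest called rises (left panel) and the 6 called falls (right panel) of the whole-table fit, with iEZH in red at the left of each gene and DMSO in dark blue at its right; points are libraries and lines are means of 2. No gene has overlapping groups, which the choice of these genes required. Rises start low (DLX2 sits at the floor of 0.0613 FPKM in both DMSO libraries) and the falls stand between 38.2 and 240 FPKM with DMSO.

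Developmental transcription factors, the classical targets of PRC2, were higher but mostly faint. Of 175 such genes listed, 41 were analysed and 20 passed the filter on low values, 8 of them only through the iEZH libraries, so the count that follows is no measure of the whole list. Among the 20, 19 had a positive log2 change, 7 were called higher and 0 lower in the longer-row fit (1 in the whole table), and the median was 0.52 (0.37 after quantile normalization). DLX2, a homeobox gene of forebrain and limb (chromosome 2, 172964166 to 172967478), had 1.72 and 2.30 FPKM with iEZH and was at the floor with DMSO in both cases (log2 change 1.5, adjusted p = 0.0389); a fold against a floor is not given. Its neighbour DLX1 had 1.10 and 1.2 FPKM with iEZH, against 0.274 and 0.168 FPKM with DMSO (adjusted p = 0.0547, and 0.0257 in the longer rows). METAP1D, a mitochondrial methionine aminopeptidase within 50 kb of DLX1, had 9.81 and 8.83 FPKM with iEZH and 5.07 and 3.98 FPKM with DMSO (adjusted p = 0.0616 and 0.0296). Of 26 runs of neighbouring genes called in the same direction, with gaps of at most 50 kb, this was the only one of 3 genes.

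PITX1, a homeobox gene of the hindlimb, was the exception in level, at 203 and 180 FPKM with iEZH and 94.1 and 84.3 FPKM with DMSO (log2 change 1.09, SE 0.13; adjusted p = 0.0524 and 0.0208). SOX12 had 35.3 and 34.5 FPKM with iEZH, against 20.3 and 19.3 FPKM with DMSO (adjusted p = 0.0547 and 0.0256), and SOX9, a regulator of cartilage, had 21.4 and 23.9 FPKM with iEZH, against 12.1 and 13.8 FPKM with DMSO (adjusted p = 0.0646 and 0.0348). HEY1, a mediator of Notch signalling called in the longer-row fit, was under 3 FPKM in every library. Of the 21 members that did not pass the filter, 19 had a higher mean with iEZH. Among 15 neuronal genes tested, CAMKV, the neuronal tubulin TUBB3 and the synaptic adhesion protein NLGN2 were called higher in the longer-row fit and 0 lower, with a median of 0.39. Of these 15, 3 passed the filter only through the iEZH libraries, and CAMKV and NLGN2 were under 1 FPKM in both DMSO libraries. TUBB3 had 395 and 436 FPKM with iEZH, against 213 and 233 FPKM with DMSO (0.90; adjusted p = 0.056 and 0.0251).

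The 6 longer rows called lower in the whole-table fit were all genes of the response to amino acid shortage. ATF4 is a transcription factor that cells translate when amino acids are short or the endoplasmic reticulum is stressed, and it switches on amino acid transporters, synthesis enzymes and tRNA synthetases, together with DDIT3, CHAC1, TRIB3 and SESN2. The 5 lists of such genes held 33 that were called lower with iEZH in the longer-row fit, 6 of them in the whole-table fit too. Of 17 regulators of the pathway tested, 9 were called lower and 0 higher, against 1.44% and 4.07% of all longer rows tested. Their median log2 change was -0.82, against 0.02 over all longer rows. ATF4 itself had 383 and 407 FPKM with iEZH, against 723 and 676 FPKM with DMSO (-0.82, SE 0.14; adjusted p = 0.0634 and 0.0255). CHAC1 (chromosome 15, 41245636 to 41248717) had 10.1 and 14.9 FPKM with iEZH, against 62.0 and 81.4 FPKM with DMSO (12.5 ± 3.35 against 71.7 ± 13.7 FPKM, SD, n = 2 each; -2.44, SE 0.23, adjusted p = 0.0389).

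In 12 of the 17 regulators both iEZH libraries lay below both DMSO libraries, against 23.5% of all longer rows tested, and 3 of the 17 had a positive change. SESN2, a stress-induced brake on the growth kinase mTORC1, had 12.9 and 14.5 FPKM with iEZH, against 38.2 and 45.3 FPKM with DMSO (log2 change -1.54, SE 0.14, adjusted p = 0.0389). DDIT3, the death-promoting factor CHOP, had 19.6 and 25.5 FPKM with iEZH and 63.9 and 135 FPKM with DMSO (-2.01; adjusted p = 0.068 and 0.0266), and its row overlaps that of the synthetase gene MARS. ATF5, a factor close to ATF4, had 82.3 and 125 FPKM with iEZH, against 333 and 313 FPKM with DMSO (-1.66; adjusted p = 0.0533 and 0.0207). TRIB3, a pseudokinase that damps the response, had 35.8 and 35.7 FPKM with iEZH, against 69.3 and 90.2 FPKM with DMSO (adjusted p = 0.0547 and 0.0238). CEBPB, CEBPG and VLDLR were the remaining members called, with log2 changes of -0.77 to -1.30.

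Cytosolic aminoacyl-tRNA synthetases, which load amino acids onto tRNAs, were called lower in 10 of 19 cases and higher in 0, with a median of -0.68. WARS, the tryptophan enzyme, had 52.0 and 57.6 FPKM with iEZH, against 128 and 123 FPKM with DMSO (-1.18, SE 0.12, adjusted p = 0.0425). AARS, for alanine, had 83.2 and 107 FPKM with iEZH, against 214 and 231 FPKM with DMSO (-1.23; adjusted p = 0.0538 and 0.022), and SARS, for serine, had 103 and 107 FPKM with iEZH, against 205 and 221 FPKM with DMSO (adjusted p = 0.0524 and 0.0207). The 16 synthetases of mitochondria tested had a median of 0.11, with 0 called lower and 1, MARS2, called higher at 23.4 and 22.3 FPKM with iEZH, against 15.1 and 12.9 FPKM with DMSO (adjusted p = 0.0743 and 0.0449).

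Enzymes that make serine and glycine and pass on their carbon were called lower in 6 of 17 cases. SHMT2, the mitochondrial serine hydroxymethyltransferase, had 102 and 112 FPKM with iEZH, against 240 and 225 FPKM with DMSO (-1.11, SE 0.13, adjusted p = 0.0493). PSAT1, of the serine pathway, had 42.1 and 72.2 FPKM with iEZH, against 180 and 186 FPKM with DMSO (-1.71; adjusted p = 0.0556 and 0.0231), and PHGDH, its entry enzyme, had 69.6 and 115 FPKM with iEZH, against 226 and 220 FPKM with DMSO (-1.31; adjusted p = 0.072 and 0.031). MTHFD2, PSPH and MTHFD1L were the other 3 called. ASNS, asparagine synthetase, had 81.7 and 187 FPKM with iEZH and 397 and 334 FPKM with DMSO, and did not pass (adjusted p = 0.114 and 0.054); its iEZH libraries lay far apart. CTH, which makes cysteine, was called lower (10.6 and 18.9 FPKM with iEZH, against 49.5 and 53.9 FPKM with DMSO), whereas OAT and GLUL, which handle ornithine and glutamine, were called higher in the longer-row fit. For PSAT1, PHGDH, ATF5, CTH and ASNS, iEZH library 1 was the lowest of the 4 libraries and iEZH library 2 stood between it and DMSO.

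Of 20 amino acid transporters tested, 7 were called lower and 1 higher, against 1.44% and 4.07% of all longer rows tested. SLC43A1, a carrier of large neutral amino acids, had 28.2 and 33.3 FPKM with iEZH, against 78.9 and 91.4 FPKM with DMSO (-1.44, SE 0.15, adjusted p = 0.0425). SLC1A5, a glutamine carrier, had 59.9 and 55.2 FPKM with iEZH, against 120 and 115 FPKM with DMSO (-1.02, SE 0.12, adjusted p = 0.0493). SLC3A2, the shared heavy chain of several carriers, had 86.2 and 71.4 FPKM with iEZH, against 177 and 147 FPKM with DMSO (adjusted p = 0.0574 and 0.0252). SLC43A2, a relative of SLC43A1, went the other way, with 61.7 and 52.7 FPKM with iEZH, against 34.6 and 32.1 FPKM with DMSO (0.76; adjusted p = 0.0649 and 0.0347).

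**Figure D4:**
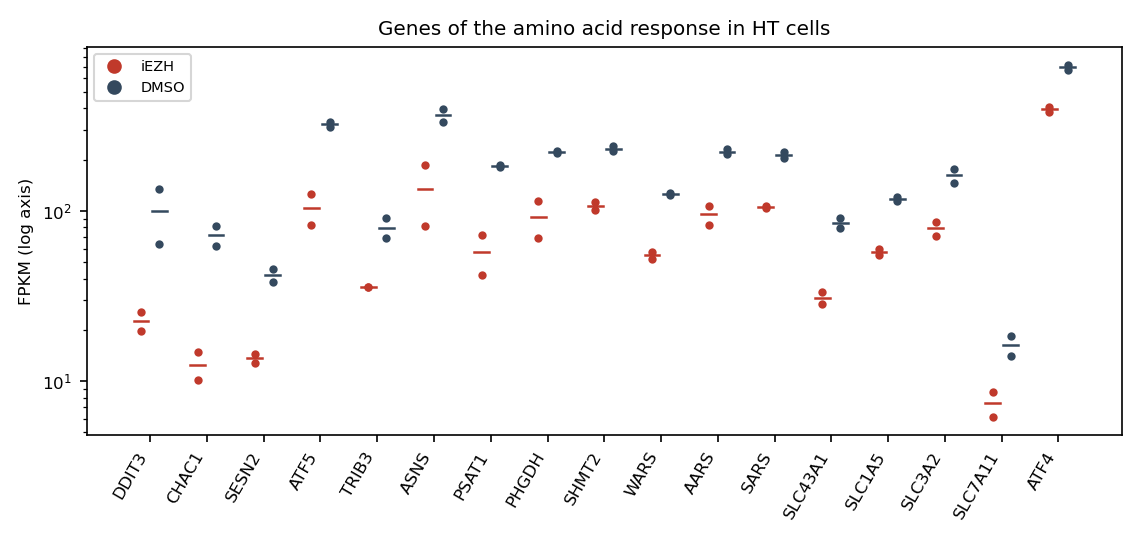
FPKM (log axis) in each HT library for 17 genes of the ATF4 response, chosen after their values were seen, with iEZH in red at the left of each gene and DMSO in dark blue at its right; points are libraries and lines are means of 2. In all 17 both iEZH libraries lie below both DMSO libraries, though ASNS, with iEZH libraries at 81.7 and 187 FPKM, did not pass the test.

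ATF4 forms pairs with C/EBP proteins on a composite element, and the letters TGATGNAA were searched for on both strands from 250 bases before to 50 after each gene start in the RefSeq promoter table (GRCh38.p14). Of the 33 falls of these lists, 26 had a window there and 8 of the 26 held the letters. Among tested members of these lists not called lower, 5 of 45 windows held them (11.1%). They stood in 139 of 8743 windows of longer rows tested (1.59%) and in 1003 of all 27305 windows (3.67%). As under 80% of the falls, and of all tested genes, had a window, the shares are not compared. The 4 matches that lie before the start are given below with up to 20 bases on each side and none past the start, read along the gene's strand, with the match in capitals. They sit at chr15:40953242-40953289 for CHAC1 on the plus strand, chr16:70289666-70289713 for AARS on the minus strand, chr9:92293698-92293730 for IARS on the minus strand and chr6:150866337-150866384 for MTHFD1L on the plus strand.
CHAC1: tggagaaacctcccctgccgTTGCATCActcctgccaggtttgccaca
AARS: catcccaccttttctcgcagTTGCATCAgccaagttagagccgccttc
IARS: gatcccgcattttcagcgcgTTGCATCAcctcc
MTHFD1L: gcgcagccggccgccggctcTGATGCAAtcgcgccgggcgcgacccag
The first 3 carry the element on the opposite strand and MTHFD1L on its own strand, and a match of letters is not a binding site.

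Among 45 chaperone and degradation genes of the endoplasmic reticulum, 3 were called lower and 0 higher in the longer-row fit, and the median was 0.03. The 3 were XBP1, a factor of the unfolded protein response and of plasma cells, DERL3 and EDEM1, which clear misfolded proteins. XBP1 had 29.6 and 34.2 FPKM with iEZH, against 53.3 and 58.1 FPKM with DMSO (log2 change -0.79; adjusted p = 0.0598 and 0.031).

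Genes of DNA replication, mitosis and DNA repair had mostly small negative changes. Of 53 DNA replication genes tested, 50 had a negative log2 change and in 47 both iEZH libraries lay below both DMSO libraries, against 23.5% of all longer rows; 10 were called lower and 0 higher in the longer-row fit, 0 in the whole table, and the median was -0.44. PRIM1, the catalytic primase subunit, had 15.6 and 16.6 FPKM with iEZH, against 31.9 and 37.0 FPKM with DMSO (-1.05; adjusted p = 0.0524 and 0.022). CDT1, which loads the MCM helicase at origins, had 32.2 and 34.3 FPKM with iEZH, against 56.9 and 71.3 FPKM with DMSO (adjusted p = 0.059 and 0.0271). PCNA, the sliding clamp, had 242 and 224 FPKM with iEZH, against 370 and 363 FPKM with DMSO (adjusted p = 0.075 and 0.039).

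Of 89 mitosis and spindle genes, 88 had a negative log2 change, 11 were called lower and 0 higher in the longer-row fit, and the median was -0.36. CKS1B, a subunit of cyclin-dependent kinases, had 90.9 and 70.3 FPKM with iEZH, against 147 and 165 FPKM with DMSO (-0.95; adjusted p = 0.0651 and 0.0295). AURKB, a kinase of chromosome segregation, had 85.5 and 73.8 FPKM with iEZH, against 137 and 134 FPKM with DMSO (adjusted p = 0.0616 and 0.031). Of 53 DNA repair genes, 48 were lower in log2 change and 7 were called lower. BRCA1, of recombination repair, had 21.9 and 23.0 FPKM with iEZH, against 35.9 and 37.7 FPKM with DMSO (adjusted p = 0.0593 and 0.0347). Among 27 nucleotide synthesis enzymes 10 had a positive log2 change, the median was -0.12 (-0.0449 after quantile normalization) and 4 were called lower: TK1, TYMS, RRM1 and RRM2, which make DNA precursors. TK1 had 66.9 and 54.7 FPKM with iEZH, against 121 and 120 FPKM with DMSO (-0.98; adjusted p = 0.0547 and 0.025). The list medians of replication, mitosis and repair genes stayed negative after median-ratio rescaling (-0.45, -0.38 and -0.38) and after quantile normalization (-0.41, -0.31 and -0.31).

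E2F factors act on many of these genes, and the letters TTTGGCGC or TTTCCCGC were searched on both strands. They stood in the windows of 6 of 25 falls of the replication, nucleotide, mitosis and repair lists (32 falls in all). Among tested members of these lists not called lower, 25 of 164 windows held them (15.2%). They stood in 348 of 8743 windows of longer rows tested (3.98%) and in 631 of all 27305 windows (2.31%). Here too under 80% of the falls had a window and the shares are not compared. MCM6, a helicase subunit at 39.9 and 38.7 FPKM with iEZH and 66.0 and 59.2 FPKM with DMSO (-0.66; adjusted p = 0.0675 and 0.0397), held the letters at 2 places on its own strand, at chr2:135876568-135876615 and chr2:135876506-135876553 (minus strand, GRCh38.p14).
MCM6, farther from the start: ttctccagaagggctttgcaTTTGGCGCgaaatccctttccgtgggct
MCM6, nearer to the start: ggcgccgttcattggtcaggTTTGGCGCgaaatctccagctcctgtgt
Capitals mark the match in each.

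The brakes and drivers of the cycle did not follow 1 pattern. CDKN1A, the p21 inhibitor, was too low to be tested (0.195 and 0.296 FPKM with iEZH, 0.251 and 0.465 FPKM with DMSO), and CDKN2D, the p19 inhibitor, was lower, at 7.90 and 7.84 FPKM with iEZH, against 15.4 and 19.7 FPKM with DMSO (-1.05; adjusted p = 0.0548 and 0.0251). MYC, a driver of growth, was higher, at 156 and 149 FPKM with iEZH, against 82.7 and 61.7 FPKM with DMSO (1.08, SE 0.17; adjusted p = 0.0577 and 0.0252). Its antagonist MXD4 was higher as well, at 16.2 and 15.2 FPKM with iEZH, against 7.63 and 7.61 FPKM with DMSO, and MXD3 was lower. TXNIP, which blocks glucose uptake, had 10.1 and 24.6 FPKM with iEZH, against 5.92 and 5.20 FPKM with DMSO, and did not pass (adjusted p = 0.141 and 0.0762). Among 77 ribosome biogenesis genes 62 had a positive log2 change (median 0.20), but 0 were called in either fit. For 14 of the 77 the smaller iEZH value exceeded the larger DMSO value, a pattern found in 28.8% of all longer rows tested. Summed over this list, levels overlapped between groups, at 6413 and 5099 FPKM with iEZH and 5629 and 4821 FPKM with DMSO. Proteasome subunits were lower in 31 of 35 cases (median -0.17, and -0.05 after quantile normalization), again with 0 called. In 9 of the 35 both iEZH libraries lay below both DMSO libraries, against 23.5% of all longer rows tested. Of 87 cytosolic ribosomal protein rows tested (median 0.03), the sole call was RPL13P5, a pseudogene that can share reads with its parent. Members of 34 tested histone cluster rows had a median of -1.17 with 0 called in either fit. In 9 of the 34 both iEZH libraries lay below both DMSO libraries, against 23.5% of all longer rows tested. The summed level of the histone list was 118 and 79.9 FPKM with iEZH and 601 and 89.1 FPKM with DMSO, so the groups overlapped. Values varied several-fold within groups: HIST1H2BL, 1 of the 9, had 1.93 and 0.481 FPKM with iEZH and 9.46 and 2.39 FPKM with DMSO. It was lower with iEZH at each replicate number, and with that number as a block its limma adjusted p was 0.0067.

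**Figure D5:**
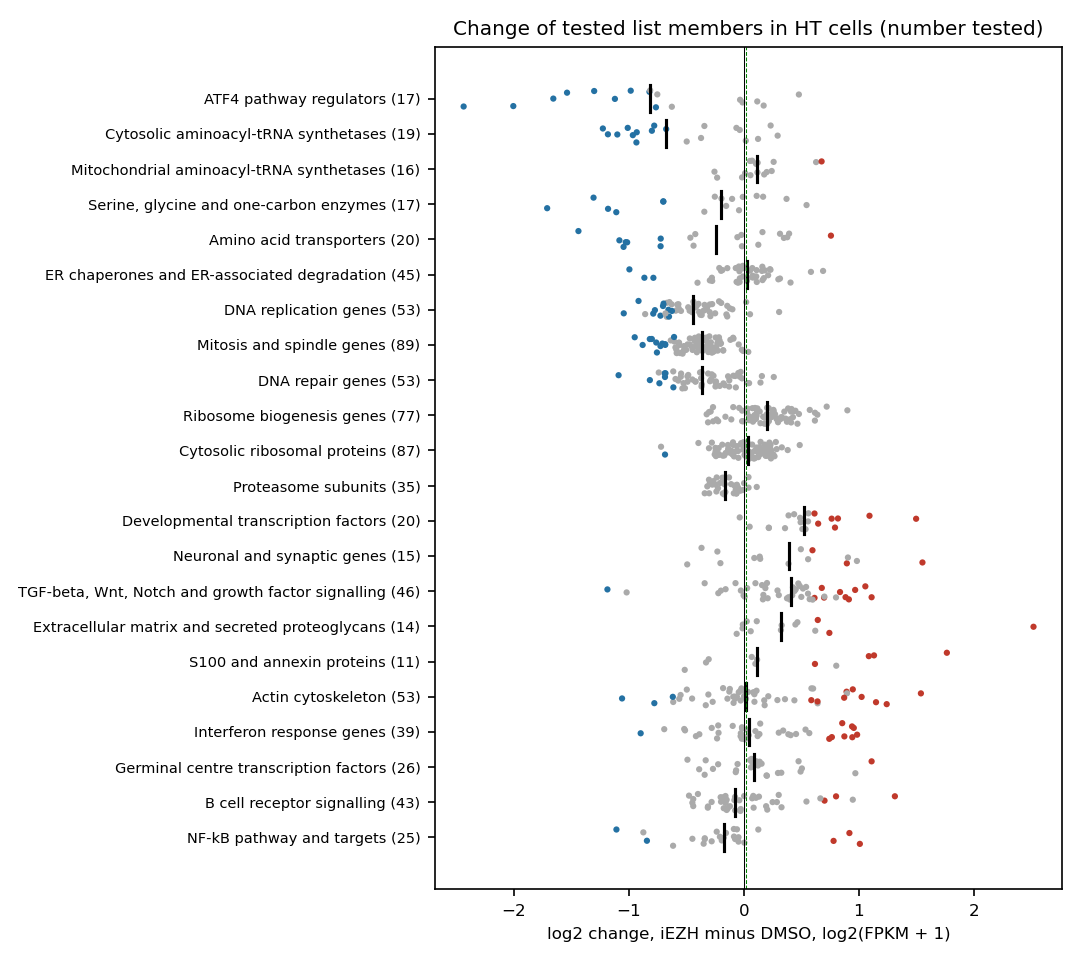
Log2 change, iEZH minus DMSO (horizontal axis), of the tested members of 22 gene lists (rows, number tested in parentheses); each point is a gene, red where called higher and blue where called lower in the fit of rows spanning 300 bp or more alone, black bars are list medians and the green dashed line is the median of all tested rows, 0.02. Calls lie mostly on the left for ATF4, synthetase and cell cycle lists and on the right for developmental and signalling lists, while the medians of ribosomal protein and endoplasmic reticulum lists lie near 0.

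Of 46 genes of TGF-beta, Wnt, Notch and growth factor signalling tested, 5 passed the filter on low values only through the iEZH libraries, so the counts and the median do not stand for the whole list. Among the 46, 37 had a positive log2 change, 9 were called higher and 1 lower in the longer-row fit, and the median was 0.41 (0.27 after quantile normalization). TGFBR1, a TGF-beta receptor, had 4.73 and 5.41 FPKM with iEZH, against 2.04 and 1.79 FPKM with DMSO (1.06; adjusted p = 0.0526 and 0.022). SMAD3, which carries its signal, had 5.66 and 6.75 FPKM with iEZH, against 2.78 and 2.85 FPKM with DMSO (adjusted p = 0.0548 and 0.0253), and ID3, a target of the BMP branch and a brake on E proteins in germinal centre cells, had 105 and 77.7 FPKM with iEZH, against 43.3 and 39.5 FPKM with DMSO (1.11; adjusted p = 0.058 and 0.0252). VEGFA, the vascular growth factor, was the fall, at 2.35 and 3.81 FPKM with iEZH, against 8.45 and 7.87 FPKM with DMSO (-1.19; adjusted p = 0.0623 and 0.0266).

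Of 53 genes of the actin cytoskeleton, 9 were called higher and 3 lower, against 4.07% and 1.44% of all longer rows tested. Their median was 0.02, equal to that of all longer rows. LMNA, the A-type nuclear lamin, had 9.27 and 10.0 FPKM with iEZH, against 3.24 and 3.78 FPKM with DMSO (1.24, SE 0.13, adjusted p = 0.0444), and VCL, vinculin of adhesion sites, had 9.49 and 12.3 FPKM with iEZH, against 3.94 and 4.75 FPKM with DMSO (adjusted p = 0.0556 and 0.0251). TMSB4X, the actin-binding thymosin of blood cells, was lower, at 400 and 530 FPKM with iEZH, against 992 and 931 FPKM with DMSO (-1.06; adjusted p = 0.0671 and 0.0257). S100 and annexin genes gave 4 rises and 0 falls among 11 tested. S100A6 had 1.29 and 1.67 FPKM with iEZH and was near the floor with DMSO, at 0.0707 and 0.188 FPKM (adjusted p = 0.0524 and 0.022). Of 14 matrix genes tested, SPOCK2, the laminin chain LAMC1 and the proteoglycan AGRN were called higher and 0 lower.

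Interferon response genes gave 8 rises and 1 fall among 39 tested in the longer-row fit, against 4.07% and 1.44% of all longer rows tested. Their median was 0.04, close to that of all longer rows. PARP12 had 13.7 and 13.1 FPKM with iEZH, against 6.81 and 6.04 FPKM with DMSO (0.96; adjusted p = 0.0533 and 0.0242), and OASL, of the antiviral oligoadenylate synthetase family, had 2.06 and 2.23 FPKM with iEZH, against 0.678 and 0.757 FPKM with DMSO (adjusted p = 0.054 and 0.0251). IFITM1 and IFITM2, which block virus entry, lie side by side and were both called higher; they are closely similar, so their reads may be split. The fall was ISG20, an RNA exonuclease, at 23.2 and 23.7 FPKM with iEZH and 39.8 and 50 FPKM with DMSO (adjusted p = 0.0593 and 0.0285). None of 9 antigen presentation genes tested was called.

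BCL6, the master regulator of germinal centre cells, had 397 and 491 FPKM with iEZH and 386 and 418 FPKM with DMSO, with overlapping groups (0.14, adjusted p = 0.692). PAX5 had 86.0 and 74.5 FPKM with iEZH and 78.8 and 75.5 FPKM with DMSO (adjusted p = 0.853). Of 26 germinal centre transcription factors tested only ID3 was called, and of 25 germinal centre effectors only SERPINA9, a serpin of those cells, at 148 and 159 FPKM with iEZH, against 103 and 94.4 FPKM with DMSO (adjusted p = 0.0743 and 0.0432). In B cell receptor signalling 3 of 43 genes were called higher and 0 lower, against 4.07% and 1.44% of all longer rows tested. Of the 43, 25 had a negative log2 change, and the median was -0.08. PRKCA, protein kinase C alpha (chromosome 17, 64298926 to 64806862), passed in both fits, with 27.5 and 31.2 FPKM with iEZH, against 11.1 and 11.3 FPKM with DMSO (1.31, SE 0.13, adjusted p = 0.0401). SIGLEC10, an inhibitory receptor, had 173 and 177 FPKM with iEZH, against 96.4 and 104 FPKM with DMSO (adjusted p = 0.0548 and 0.0252). IL4R and the activation marker CD83 were called higher in the longer-row fit. PRDM1 and IRF4, the plasma cell factors, were not analysed here.

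In the NF-kB list, 20 of 25 genes had a negative log2 change (median -0.18), with 2 called lower and 3 higher. NFKB2, the precursor of p52 in the alternative pathway, had 23.1 and 27.6 FPKM with iEZH, against 51.8 and 59.8 FPKM with DMSO (-1.11; adjusted p = 0.0533 and 0.022), and its partner RELB had 22.3 and 28.8 FPKM with iEZH, against 41.1 and 52.1 FPKM with DMSO (adjusted p = 0.0902 and 0.048). TRAF3, which holds that pathway off by marking its kinase for decay, had 10.1 and 11 FPKM with iEZH, against 4.84 and 4.62 FPKM with DMSO (1.01; adjusted p = 0.0524 and 0.022). The BH3-only death genes BBC3 and PMAIP1 were called lower in the longer-row fit. PMAIP1 had 14.2 and 20.8 FPKM with iEZH, against 32.3 and 44.8 FPKM with DMSO (-1.10; adjusted p = 0.0902 and 0.0441). Of 23 death receptor and caspase genes 0 were called in either fit. SESN1, a sestrin known as a p53 target, rose while SESN2 fell: it had 2.54 and 3.02 FPKM with iEZH, against 0.772 and 0.942 FPKM with DMSO (1.02; adjusted p = 0.0533 and 0.022).

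Metabolic lists other than those of amino acids held few calls. None of 77 oxidative phosphorylation genes and none of 35 cholesterol and fatty acid synthesis genes was called in either fit, with medians of -0.07 (0.04 after quantile normalization) and 0.01 (-0.00409 after median-ratio rescaling). Among 27 glycolysis genes the glucose carrier SLC2A3 was called lower, at 4.48 and 4.90 FPKM with iEZH, against 7.88 and 9.43 FPKM with DMSO (adjusted p = 0.0701 and 0.0389). ACSL1, which activates long-chain fatty acids, was the sole call of 24 fatty acid oxidation genes, at 6.14 and 7.38 FPKM with iEZH, against 3.06 and 3 FPKM with DMSO (0.94; adjusted p = 0.0547 and 0.0252). Zinc finger genes on chromosome 19 were lower in 158 of 207 cases with a median of -0.14, and 0 were called in either fit; ZNF568 had 2.73 and 3.29 FPKM with iEZH and 4.69 and 5.48 FPKM with DMSO (adjusted p = 0.103 and 0.0695).

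The effect of iEZH in HT was set against that in SUDHL6 by testing, over all 8 libraries at once, whether the change depended on the line. The tables of the lines may have been normalized separately, so only changes within a line were compared. Of 10426 rows tested in both lines 11 differed (0.106%), 6 of them spanning 300 bp or more. PRKCA rose in HT, while in SUDHL6 it had 38.0 and 33.8 FPKM with iEZH and 42.3 and 41.1 FPKM with DMSO (difference in log2 change, HT minus SUDHL6, 1.53, SE 0.15, adjusted p = 0.0274). NETO2, an auxiliary protein of glutamate receptors, had 11.3 and 10.6 FPKM with iEZH in HT, against 5.43 and 5.16 FPKM with DMSO, and in SUDHL6 17.6 and 16.1 FPKM with iEZH, against 21.2 and 22.9 FPKM with DMSO (1.30, adjusted p = 0.0415). ADA, adenosine deaminase, had 31.4 and 34.6 FPKM with iEZH in HT, against 23.4 and 22.7 FPKM with DMSO, and in SUDHL6 77.9 and 70.7 FPKM with iEZH, against 132 and 140 FPKM with DMSO (1.36, adjusted p = 0.0451).

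The other 3 differences were negative. CLECL1, a lectin-like receptor of B cells, had 2.04 and 2.54 FPKM with iEZH in HT, against 5.13 and 4.60 FPKM with DMSO, and in SUDHL6 44.2 and 44.4 FPKM with iEZH, against 16.6 and 12.4 FPKM with DMSO (-2.40, SE 0.22, adjusted p = 0.0194). PTPN6, the phosphatase SHP-1 that damps receptor signalling, had 81.4 and 96.9 FPKM with iEZH in HT, against 126 and 117 FPKM with DMSO, and in SUDHL6 64.4 and 77.4 FPKM with iEZH, against 20.2 and 23.6 FPKM with DMSO (-2.10, SE 0.21, adjusted p = 0.0274). ECI2, an enzyme of fatty acid oxidation, overlapped between groups in HT, with 64.1 and 70 FPKM with iEZH and 65.6 and 75.3 FPKM with DMSO, and had 33.8 and 33.5 FPKM with iEZH in SUDHL6, against 9.21 and 9.39 FPKM with DMSO (-1.82, SE 0.15, adjusted p = 0.0149). These calls rest on all 8 libraries: with limma, 0 longer rows were called without HT iEZH library 1, HT iEZH library 2, HT DMSO library 1, SUDHL6 iEZH library 1 or SUDHL6 iEZH library 2 (733 to 1076 had an unadjusted p under 0.05), 1 without HT DMSO library 2, 2 without SUDHL6 DMSO library 2 and 4 without SUDHL6 DMSO library 1.

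The length rule sets off rows that differ little across its edge. Just inside it, SCARNA10 (330 bp) had 2.22 and 0.837 FPKM with iEZH, against 11.7 and 4.25 FPKM with DMSO, and neither it nor SCARNA7 (330 bp) was called. SCARNA7 had 2 and 0.837 FPKM with iEZH, against 13.7 and 3.35 FPKM with DMSO, and the pseudogene CYCSP52 (310 bp) was under 0.6 FPKM in every library. Just outside it, SCARNA5 (278 bp) was at the floor with iEZH in both cases and had 8.16 and 0.340 FPKM with DMSO, SCARNA13 (275 bp) had 1.85 and 0.845 FPKM with iEZH and 7.88 and 1.65 FPKM with DMSO, and SCARNA12 (270 bp) had 22.1 and 15.6 FPKM with iEZH and 32.9 and 19.5 FPKM with DMSO.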

How the data were processed

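Total RNA of HT and SUDHL6 lymphoma cells was sequenced after 96 hours of iEZH or DMSO, with 2 libraries per group, and only the HT table was described by gene. Reads were processed with TopHat 1.4.1 and Cufflinks on hg19, per the submitters' processing notes; the annotation, library kit and strandedness are not given in the sources used here, so overlapping or antisense genes cannot be told apart. The authors deposited FPKM values per gene, with low values replaced by a floor. Their files give a detection threshold of 10 reads and a quantification threshold of 50 reads. Values under the quantification threshold, which was 0.305 to 0.345 FPKM in the HT libraries, remain among the values used here. The deposited p-values and false discovery rates of the authors' comparison, and their fold changes (a ratio), were not used in the tests. The sources used here hold no read count per gene, so no counting interval was computed, and 2 libraries per group limit the precision.

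Values were tested as log2(FPKM + 1) with limma 3.58.1 in R 4.3.3 (moderated test with a mean-variance trend, two-sided, Benjamini-Hochberg adjustment), for rows that reached 1 FPKM in 2 or more HT libraries, and called at an adjusted p of 0.05 or less. Where 2 adjusted p-values stand together, the first is from the fit of the whole HT table and the second from the rows spanning 300 bp or more alone. The tests were tried on simulated data. A single row held a non-numeric value and was left out, and 0 columns were left unmatched to a sample. Other pseudocounts, filters, scalings, a replicate block and leaving out each library were tried as alternatives. The members and all 56 gene lists were chosen with earlier results of these data known. Genes named were the 15 largest called changes in each direction, as many as 4 called genes per list (without a call, the 2 with the smallest p), a fixed set of PRC2, ATF4, MYC, BCL6 and cell cycle genes, the differences between lines and the rows next to the length limit. The largest changes were taken among called rows whose iEZH libraries lay beyond both DMSO libraries. Other genes named, among them DDIT3, TRIB3, ASNS, IARS, MTHFD1L, MCM6, PCNA, GPR161, METAP1D, VEGFA, VCL, TMSB4X and RELB, were chosen after their values were seen. Some items are not reported here.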

Additional observations from a re-analysis of the deposited data

Results flagged for a closer look

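In 6 genes the log2 change with iEZH differed between HT and SUDHL6 by limma's test of that difference over all 8 libraries. The difference, HT minus SUDHL6, was 1.53 for PRKCA, 1.36 for ADA and 1.30 for NETO2, and it was -2.40 for CLECL1, -2.10 for PTPN6 and -1.82 for ECI2. The log2 change in SUDHL6 alone was -0.21 for PRKCA, -0.86 for ADA, -0.37 for NETO2, 1.56 for CLECL1, 1.65 for PTPN6 and 1.75 for ECI2. Groups of 2 libraries are too small for a test of single outlying libraries.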

How the results depend on the processing

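Against the 51 calls among longer rows, limma gave 77 with 0.5 added, 23 at a filter of 5 FPKM, 18 after quantile normalization, 477 with robust variances, 640 with both lines in 1 fit, 615 with the longer rows alone, and 0 with no filter (2937 at an unadjusted p under 0.05). Counts without 1 library ran from 11 to 70 over the whole table and, chosen after seeing the data, were 1063 without iEZH library 1, 1163 without iEZH library 2, 500 without DMSO library 1 and 467 without DMSO library 2 in the longer rows alone. Also added after seeing the data, the longer rows alone gave 332 calls with no filter, 566 after median-ratio rescaling and 321 after quantile normalization. Nothing in the labels says what a replicate number stands for; deviations of same-numbered libraries correlated at 0.618 over 11164 rows. With the number as a replicate block, 2440 longer rows were called, and 3743 with the longer rows alone. HIST1H2BL, not called without the block, had an adjusted p of 0.0067 with it. For the difference between lines, 6 calls became 10 with 0.1 added, 520 with the block, 1270 with the block in longer rows alone, and 0 to 4 without 1 library (at 0, 733 to 1076 had an unadjusted p under 0.05). Signs turned for DCN (0.11; -0.0611 and, in longer rows alone, -0.0771 after quantile normalization; -0.0271 to 0.25 without 1 library), ECI2 (-0.07; 0.0113 and 0.00279; -0.17 to 0.0296), BCL6 (0.14; -0.0158 to 0.29) and EZH1 (-0.01; -0.11 to 0.10, and 0.0699 without DMSO library 2), none of them called in HT. The cause was not tested. Genes near the floor of 0.0613 FPKM are limited by depth.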
